A study of Mus musculus with 12 samples.

Results

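The S100 calcium-binding proteins described here are S100a1, S100a3, S100a4, S100a6, S100a8, S100a9, S100a10, S100a11 and S100a13, 9 of the 35071 gene names on the array. They were taken by name: all 11 probes, of 55681, that the array design assigns to these symbols. The array carried 10 other gene names beginning with S100, which are described separately below. The choice of the 9 was made with their levels in all 4 groups known, so their values are given as a description, without p-values. Where the number of members past the threshold of a fit across all genes is printed beside the share of all genes, nothing is read from it. RNA was measured on 12 arrays, 3 in each of 4 groups. Mouse macrophage-like RAW264.7 cells were transfected with the vector PLKO (control) or with an shRNA against ABHD5 (knockdown). The colon carcinoma line CT-26, also of the mouse, had been primed by control RAW264.7 cells (control-primed) or by ABHD5-knockdown RAW264.7 cells (knockdown-primed). The genotype field calls the knockdown-primed CT-26 cells ABHD5-KD too, while their source field puts the knockdown in the priming RAW264.7 cells. The study set out to find what acts downstream of ABHD5 in macrophages and what follows in tumour cells. The labels name a single shRNA, and leave out the method of priming, any removal of RAW264.7 cells before RNA was taken, and the independence of the cultures within a group, so every p-value measures only the spread between these samples.

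S100 proteins are small calcium sensors of vertebrates that mostly work as dimers. Each monomer folds into a pair of EF-hands, helix-loop-helix motifs whose loop holds a calcium ion, and calcium binding opens a surface that grips a target protein. Inside cells the targets include annexins, myosin and regulators of the cytoskeleton. Some members leave the cell without a signal peptide and act as alarmins, signals of damage that are read by receptors such as Tlr4 and Ager. Myeloid cells are the best known source of S100a8 and S100a9, whose heterodimer is called calprotectin, and many carcinoma lines express S100a4, S100a6, S100a10 and S100a11.

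Levels are the log2 of the background-corrected spot signal minus the 75th percentile of that array, so a value of 0 is the brightness of the 75th percentile and a difference of 1 is 2-fold. They compare arrays for the same probe, not different probes. Spots well above background, as the scanner software scores them, made up 56.5% to 73.0% of spots on the RAW264.7 arrays and 59.2% to 77.3% on the CT-26 arrays. RAW264.7 control replicates 1 and 2 shared slide 1, and had 56.5% and 57.8% of such spots. Control replicate 3 and the 3 knockdown arrays shared slide 2, with 69.0% to 73.0%, and slide 3 held all CT-26 arrays. Abhd5, a co-activator of the lipase that opens lipid droplets and the target of the shRNA, fell in RAW264.7 knockdown cells by 1.32 ± 0.20 (log2, SE, limma adjusted p = 0.00345, n = 3 per group). Within slide 2 the difference was -1.23, and with slide as a block the adjusted p was 0.0556. Of 12 macrophage markers, 11 were well above background on all arrays of both RAW264.7 groups, and their summed level, which the brightest probes dominate, ran from 280 to 318 in control and from 289 to 330 in knockdown cells. Within that list Adgre1 went from 0.46 ± 0.44 to 3.32 ± 0.06 and Lyz2 from 3.66 ± 0.92 to 5.54 ± 0.06 (SD, n = 3). In the other direction Cd68 went from 5.56 ± 0.31 to 4.96 ± 0.12, Itgam from 6.24 ± 0.35 to 5.86 ± 0.19 and Csf1r from 2.47 ± 0.35 to 2.13 ± 0.13. Laptm5, Fcer1g and Fcgr1 also read lower in knockdown cells, and Ptprc, Tyrobp, Cd14 and Mrc1 read higher. Between the CT-26 groups Abhd5, at its brightest probe, differed by 0.07 ± 0.15 (SE, limma adjusted p = 0.776). Its other probes, well above background on all CT-26 arrays, read lower in knockdown-primed cells, by -0.30 ± 0.17 and -0.48 ± 0.35 (SE). In CT-26 cells the macrophage sum was 56.0 to 75.9. There 10 of the 12 were well above background on all control-primed and 9 on all knockdown-primed arrays. Itgam, with the highest level of them, stood at 5.60 ± 0.08 and 5.77 ± 0.27. Cd14 stood at 2.07 ± 0.18 and 2.23 ± 0.21 and Cd68 at 1.73 ± 0.05 and 0.91 ± 0.12. Others in that count were dim, such as Fcer1g at -4.04 ± 0.26 and Lyz2 at -4.39 ± 0.91 after control priming. In RAW264.7 control cells Fcer1g averaged 5.29 and Lyz2 3.66. Of the 12 only Mrc1 read higher in control-primed CT-26 than in RAW264.7 control cells (-1.14 against -7.35, the latter at background). Adgre1 was not well above background on any CT-26 array, and Tyrobp and Laptm5 were not on any knockdown-primed array. The epithelial markers Cdh1 and Epcam were at or near background in CT-26 cells, where Krt20 was bright and all 7 fibroblast markers were well above background.

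The S100a8 difference between RAW264.7 groups exceeded that of every other member. S100a8 forms calprotectin with S100a9, binds zinc and manganese, and is read outside the cell by Tlr4. Its probe lies in the coding sequence, over a calcium-binding loop, as does that of S100a1, so both are shown for the defining feature of the family. In the lines below, taken from the array files (mm9), capitals mark the 36 bases that encode a 12-residue EF-hand loop, as found by a search of the open reading frame; 20 of the 36 bases are identical between both genes. The other 9 probes of the 11 held no complete loop.
S100a8, chr3:90473778-90473837, plus strand: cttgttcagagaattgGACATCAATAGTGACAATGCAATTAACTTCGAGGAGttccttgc
S100a1, chr3:90315191-90315250, minus strand: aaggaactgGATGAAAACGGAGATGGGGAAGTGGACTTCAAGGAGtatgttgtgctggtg

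S100a8 stood at -2.99, -3.52 and -1.93 on the 3 RAW264.7 control arrays and at 3.44, 3.46 and 3.89 on the knockdown arrays. Every knockdown array lay more than 5 log2 units above every control array, and all 6 were well above background. The means were -2.81 ± 0.81 and 3.60 ± 0.25 (SD, n = 3), a difference of 6.41 ± 0.37 (SE), or 84.9-fold. The highest control value was that of replicate 3, the control array on slide 2, and against this array alone the difference was 5.53. In CT-26 cells S100a8 was near the lower end of the scale: -5.58, -5.43 and -5.31 on control-primed and -5.20, -5.58 and -5.08 on knockdown-primed arrays. The CT-26 groups overlapped, with a difference of 0.15 ± 0.18, and only 1 of the 3 knockdown-primed arrays was well above background. The order of levels was thus RAW264.7 knockdown, RAW264.7 control, then both CT-26 groups, which did not differ beyond their spread. In bulk RNA such as this, more RNA per cell and more cells of a high-expressing kind cannot be told apart.

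S100a9, the partner of S100a8 in calprotectin, was also higher in knockdown than in control RAW264.7 cells. Its probe, chr3:90496573-90496632 on the minus strand, read -5.52, -5.43 and -5.09 on RAW264.7 control arrays and -3.36, -3.75 and -2.47 on knockdown arrays. The groups did not overlap, and all 3 knockdown arrays were well above background. Of the control arrays only replicate 3, the array on slide 2, was well above background, so the control mean of -5.35 ± 0.22 (SD, n = 3) rests mostly on unmeasured arrays. The difference from the knockdown mean of -3.19 ± 0.65 was 2.16 ± 0.32 (SE); it was 1.90 within slide 2 and 1.08 when the background was corrected with normexp instead. S100a9 was not well above background on any of the 6 CT-26 arrays. Over all 12 arrays S100a8 and S100a9 had a Pearson r of 0.935, given as a description. Both genes read highest on the RAW264.7 knockdown arrays and lowest on the CT-26 arrays, and the part of each group in that value was not tested. Of 10 markers of neutrophils, the cells richest in calprotectin, 4 were well above background on all control and 7 on all knockdown RAW264.7 arrays, while Ly6g, Ltf and Retnlg were not on any. Their summed level was 0.471 to 0.606 in control and 0.632 to 1.08 in knockdown cells. Within the list Camp went from -3.97 ± 0.53 to -1.74 ± 0.87 and Mmp8 from -4.70 ± 0.47 to -2.76 ± 0.25 (SD, n = 3). The difference at this Camp probe was 2.23 ± 0.43, and at a second Camp probe 5.60 ± 0.47 (SE). Cxcr2 went from -3.38 ± 0.58 to -2.98 ± 0.29. Other listed genes read lower in knockdown cells: Prtn3 went from -2.72 ± 0.50 to -3.49 ± 0.20 and Elane from -4.25 ± 0.12 to -4.73 ± 0.35. Mpo went from -4.16 ± 0.38 to -4.39 ± 0.60 and Ngp from -4.66 ± 0.45 to -4.94 ± 0.72. Camp, at the first probe, was well above background on 2 of 3 and Mmp8 on 1 of 3 control arrays. The part of these genes' source in the S100 differences was not tested.

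**Figure D1:**
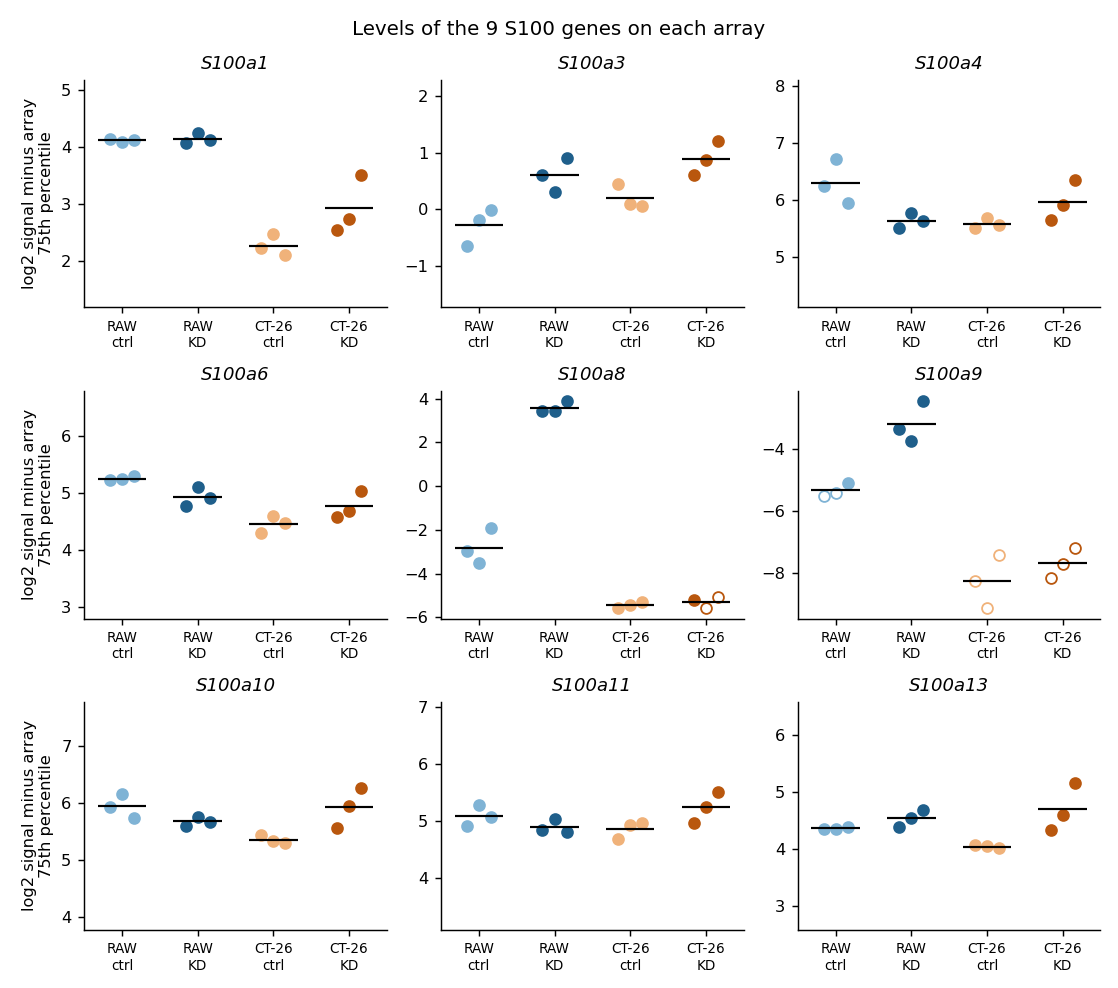
Level of each of the 9 genes on each array (vertical axis, log2 signal minus the array's 75th percentile; each panel has its own range of at least 4 units) in RAW264.7 control, RAW264.7 knockdown, control-primed CT-26 and knockdown-primed CT-26 cells, replicates 1 to 3 from left to right, with a line at the mean of 3. Filled points were well above background and open points were not; S100a8 stands at 3.44 to 3.89 on the RAW264.7 knockdown arrays and below -1.9 on every other array.

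S100a8 and S100a9 are neighbours on chromosome 3 and were the members with the largest RAW264.7 differences, so their promoters are shown. The sequences are those of RefSeq (GRCm38.p6), from 180 bases before to 20 bases after the annotated start. Capitals mark TATAAA, searched on the sense strand, and the C/EBP-type pattern TTNCNNAA, searched on both strands.
S100a8, chr3:90668891-90669090, plus strand: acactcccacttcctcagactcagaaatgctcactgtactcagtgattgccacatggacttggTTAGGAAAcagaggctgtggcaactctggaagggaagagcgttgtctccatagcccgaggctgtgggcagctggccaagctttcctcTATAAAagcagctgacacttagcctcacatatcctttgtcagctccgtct
S100a9, chr3:90695702-90695901, minus strand: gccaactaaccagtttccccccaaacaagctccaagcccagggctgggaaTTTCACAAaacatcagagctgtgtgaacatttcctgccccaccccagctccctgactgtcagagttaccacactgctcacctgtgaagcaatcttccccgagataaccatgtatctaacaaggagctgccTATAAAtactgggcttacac

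Both promoters held TATAAA. In S100a8 it began 30 bases before the annotated start, the usual place of a TATA box, and in S100a9 it began at the first base of the annotated transcript. The C/EBP-type pattern began 117 bases before the start in S100a8. In S100a9 it began 130 bases before, and again 236 bases before, upstream of the printed stretch. Windows were available for 8 of the 9 members, 11 windows in all, each 300 bases long. TATAAA was found in 8.32% of the 32851 RefSeq windows of that length, and TTNCNNAA in 40.7%, so the second pattern is common. Among the other members the C/EBP-type pattern was found in 2 S100a3 windows, 116 and 198 bases before the start. TATAAA began 31 bases before the start of S100a4 and 52 before that of 1 S100a3 window. The AP-1 pattern TGANTCA, searched on both strands and present in 7.81% of windows, was found among members only in S100a11, at 136 and 38 bases before the start. None of these patterns overlaps another in the printed stretches, and a match is a run of letters, not a measured binding site.

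S100a3, a cysteine-rich, zinc-binding protein best known from the hair cuticle, also was higher in knockdown RAW264.7 cells by more than 0.5 log2 units. It read -0.65, -0.19 and 0.00 on control arrays and 0.61, 0.31 and 0.90 on knockdown arrays. The closest arrays of the groups were 0.31 and 0.00, the latter being the control array on slide 2. The difference was 0.89 ± 0.24 (SE), or 1.85-fold, and 0.61 within slide 2. Without regard to how the genes were chosen, 3 of the 9 members (S100a3, S100a8 and S100a9) passed the threshold of an adjusted p of 0.05 in the higher direction, against 7.93% of the 25459 genes tested, and none in the lower direction, against 14.8% (22.7% in either direction). With slide as a block, or on slide 2 alone, the count was 1, S100a8.

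S100a4, which binds non-muscle myosin and is known from motile and metastatic cells, was lower in knockdown RAW264.7 cells. Its brighter probe read 6.24, 6.72 and 5.94 on control arrays and 5.51, 5.77 and 5.64 on knockdown arrays. The groups did not overlap, but control replicate 3, on the slide of the knockdown arrays, came closest to them. The difference was -0.67 ± 0.23 (SE), and -0.30 within slide 2. A second probe gave -0.50, with 5.45, 5.78 and 5.62 on control and 4.98, 5.32 and 5.05 on knockdown arrays, again without overlap. After quantile normalisation the difference at the brighter probe was -0.20.

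The remaining members differed by less than 0.35 log2 units between the RAW264.7 groups. S100a6 (calcyclin), which binds the ubiquitin ligase partner Cacybp, read 5.23, 5.24 and 5.30 on control and 4.77, 5.11 and 4.92 on knockdown arrays, a difference of -0.33 ± 0.17 (SE) without overlap. S100a10, the annexin A2 partner that lost calcium binding and holds plasminogen activator at the cell surface, read 5.92, 6.16 and 5.74 on control and 5.60, 5.75 and 5.67 on knockdown arrays. Its groups overlapped and differed by -0.27 ± 0.18, and by -0.06 within slide 2. S100a11, a ligand of annexin A1, overlapped as well, at 4.92, 5.28 and 5.06 against 4.84, 5.04 and 4.80, a difference of -0.19 ± 0.18. After quantile normalisation these 3 differences were 0.12 for S100a6, 0.24 for S100a10 and 0.28 for S100a11, so their sign is not settled by these data.

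S100a1 and S100a13 complete the members. S100a1, a regulator of calcium cycling in muscle, read 4.13, 4.09 and 4.13 on control and 4.07, 4.26 and 4.12 on knockdown arrays, a difference of 0.03 ± 0.17 (SE, 95% interval -0.35 to 0.41). S100a13, which takes part in the export of Fgf1 and interleukin 1 alpha, read 4.35, 4.35 and 4.37 on control and 4.38, 4.55 and 4.67 on knockdown arrays, a difference of 0.18 ± 0.17 (95% interval -0.21 to 0.57). The knockdown arrays of S100a13 lay above all control arrays, the closest, at 4.38 and 4.37, nearly touching. After quantile normalisation the differences were 0.37 for S100a1 and 0.59 for S100a13, and after median centring 0.25 and 0.40.

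The distribution of all genes was off centre between the RAW264.7 groups. The median of the 25459 genes tested was -0.30, and groups did not overlap in the lower direction for 39.7% of genes and in the higher direction for 12.5%. The median over the 9 members was 0.03. Centring arrays on their median moved the median of all genes to -0.08, and quantile normalisation to -0.08. The share of calls that were higher was 34.9% as processed here, 62.5% after median centring, 53.9% after quantile normalisation and 22.9% with normexp. S100a8, S100a9 and S100a3 were higher and S100a4 was lower under each of these scalings.

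**Figure D2:**
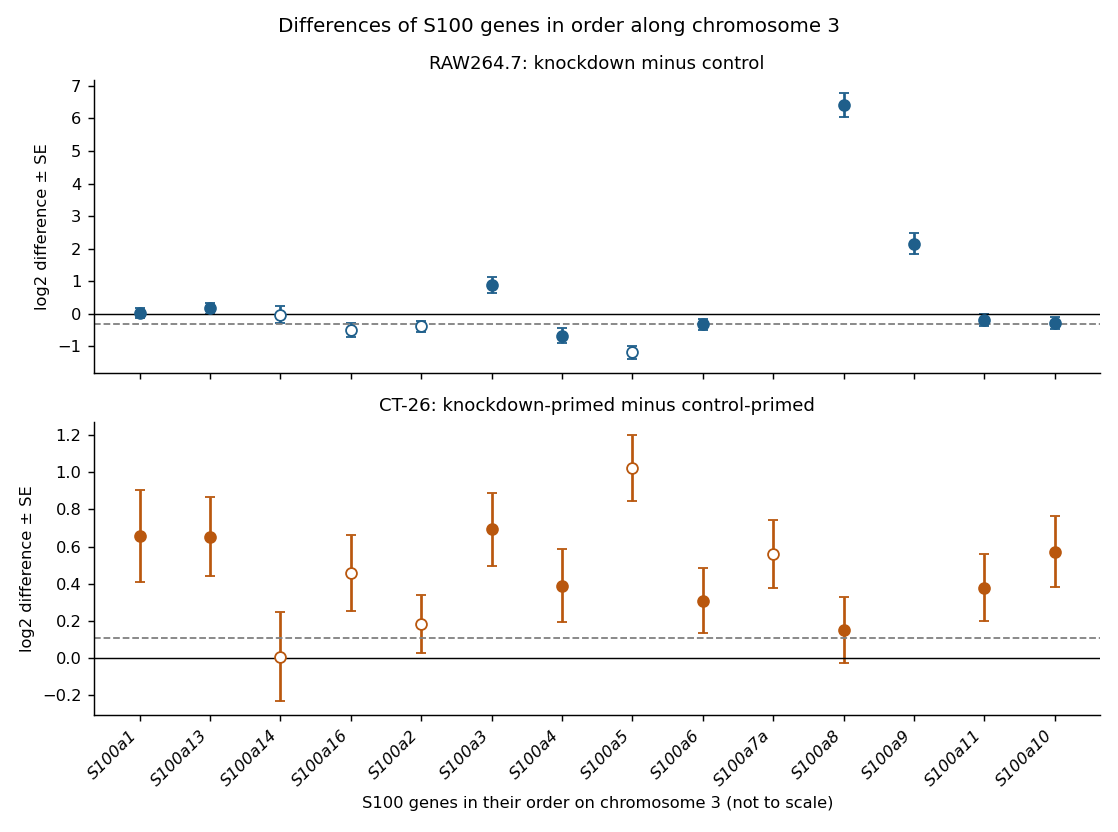
Log2 difference ± SE of each tested S100 gene between the RAW264.7 groups (upper panel) and between the CT-26 groups (lower panel), n = 3 per group, in the order of the genes along chromosome 3, which is not drawn to scale. Filled points are the 9 members, open points other S100 genes, and the dashed line is the median of all genes tested. S100a8 and S100a9 stand apart at 6.41 and 2.16 in the upper panel. In the lower panel, where S100a9 was not tested and is not drawn, the 8 members tested lie above 0.

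After priming by knockdown macrophages, all 8 members measurable in CT-26 cells had a higher mean than after priming by control macrophages, by 0.15 to 0.69 log2 units; the same held for 60.5% of the 24993 genes tested. No member passed the threshold, by limma's adjusted p, against 3.19% of all genes in the higher direction, 3.23% in the lower and 6.42% in either; nothing is read from that count, since these values chose the members. With normexp 1 member passed, and without knockdown-primed replicate 1, 3 did. The median difference over the 8 members was 0.48, and that of all genes tested was 0.11. After quantile normalisation these medians were 0.22 and 0.05, and all 8 members were still above 0.

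The larger CT-26 differences were those of S100a3, S100a1, S100a13 and S100a10. S100a3 read 0.45, 0.10 and 0.06 on control-primed and 0.61, 0.87 and 1.21 on knockdown-primed arrays, a difference of 0.69 ± 0.20 (SE) without overlap. S100a1 read 2.22, 2.47 and 2.11 against 2.54, 2.74 and 3.51, a difference of 0.66 ± 0.25 that also did not overlap but in which replicate 3 stood well above the other knockdown-primed arrays. Its second probe differed in the same direction, with 1.31, 1.37 and 1.29 against 1.79, 1.98 and 2.60. S100a13 read 4.07, 4.04 and 4.0 against 4.32, 4.60 and 5.15, a difference of 0.65 ± 0.21. S100a10 read 5.43, 5.32 and 5.29 against 5.56, 5.94 and 6.25, a difference of 0.57 ± 0.19. None of these 4 genes had overlapping groups, as held in the higher direction for 25.1% of all genes tested. Quantile normalisation gave differences of 0.72 for S100a3, 0.49 for S100a1, 0.36 for S100a13 and 0.24 for S100a10.

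S100a4, S100a11 and S100a6 differed less in CT-26 cells. S100a4 read 5.50, 5.68 and 5.55 on control-primed and 5.65, 5.91 and 6.34 on knockdown-primed arrays, a difference of 0.39 ± 0.20 (SE) with overlap. S100a11 read 4.67, 4.93 and 4.96 against 4.97, 5.23 and 5.50, a difference of 0.38 ± 0.18 in which the closest arrays of the groups, at 4.97 and 4.96, nearly touched. S100a6 read 4.29, 4.60 and 4.48 against 4.58, 4.70 and 5.04, a difference of 0.31 ± 0.18 with overlap. After quantile normalisation S100a4 differed by 0.07, S100a11 by 0.10 and S100a6 by 0.04.

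Among the knockdown-primed arrays all 8 members were highest on replicate 3, as were 45.6% of all genes tested. Of the 8, 7 lay above the control-primed mean on every knockdown-primed array, as did 40.6% of all genes; the exception was S100a8, at 0.24, -0.15 and 0.36. The knockdown-primed arrays also had fewer spots well above background: 66.9%, 63.7% and 59.2% for replicates 1, 2 and 3, against 68.3% to 77.3% on control-primed arrays. S100a1 stood 0.27, 0.47 and 1.24 above the control-primed mean on these 3 arrays, and S100a13 0.28, 0.56 and 1.11. The part of that array property in the differences was not tested.

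**Figure D3:**
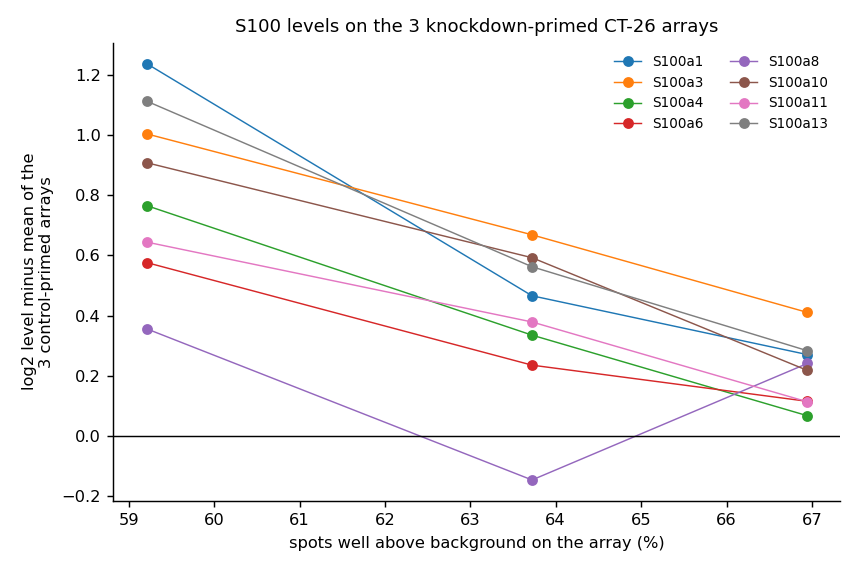
Level of each of the 8 measurable members on the 3 knockdown-primed CT-26 arrays, as the log2 difference from the mean of the 3 control-primed arrays (vertical axis), against the percentage of spots well above background on the same array (horizontal axis). Each line joins the 3 arrays of 1 gene; all 8 are highest on the array with 59.2%, and S100a8 alone falls below 0, on the array with 63.7%.

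S100a1 and S100a13 had nearly equal CT-26 differences and start close to each other on opposite strands. In the RefSeq annotation (GRCm38.p6) 104 bases separate their starts, with S100a1 running to the left and S100a13 to the right. The sequence between them, shown because it is upstream of both genes at once, held none of the 3 patterns searched.
S100a1 to S100a13, chr3:90514331-90514434, plus strand: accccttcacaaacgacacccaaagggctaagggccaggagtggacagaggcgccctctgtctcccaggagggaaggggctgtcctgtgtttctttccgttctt
In spite of the shared stretch, the genes differed in their contrast between cell lines, as the next comparison shows.

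Between the control groups of both cell lines, S100a8 and S100a1 differed most. Slide and cell line cannot be told apart here, since the CT-26 arrays filled a slide of their own. S100a8 was higher in control RAW264.7 than in control-primed CT-26 cells by 2.63 ± 0.37 (SE) and S100a1 by 1.85 ± 0.17. S100a6, S100a4 and S100a10 were higher by 0.80 ± 0.17, 0.72 ± 0.23 and 0.60 ± 0.18. S100a13 differed by 0.32 ± 0.16 and S100a11 by 0.23 ± 0.18, while S100a3 differed by -0.48 ± 0.22. Of 8 members tested 5 passed the threshold, all higher in RAW264.7 cells, against 42.2% of 25582 genes (25.3% lower, 67.6% in either direction); the members were chosen on these values, and without control-primed replicate 3 the count was 3. After quantile normalisation S100a10 differed by 0.05 and S100a6 by 0.10, and the signs of S100a11 (-0.46) and S100a13 (-0.41) turned.

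The order of the 4 groups differed between members. S100a1 was highest in both RAW264.7 groups (4.12 ± 0.03 and 4.15 ± 0.10), which did not differ beyond their spread, then in knockdown-primed CT-26 (2.93 ± 0.51) and control-primed CT-26 cells (2.27 ± 0.19; SD, n = 3). S100a3 was highest in knockdown-primed CT-26 cells (0.90 ± 0.30), followed by RAW264.7 knockdown (0.61 ± 0.29), control-primed CT-26 (0.20 ± 0.21) and RAW264.7 control cells (-0.28 ± 0.33). Each S100a3 group overlapped the next except the last, which lay below control-primed CT-26 cells. S100a4 was highest in RAW264.7 control cells (6.30 ± 0.39), and knockdown-primed CT-26 (5.97 ± 0.35), RAW264.7 knockdown (5.64 ± 0.13) and control-primed CT-26 cells (5.58 ± 0.09) followed, with overlap between each group and the next. S100a6 was highest in RAW264.7 control (5.26 ± 0.04), then RAW264.7 knockdown (4.93 ± 0.17), knockdown-primed CT-26 (4.77 ± 0.24) and control-primed CT-26 cells (4.46 ± 0.16). Below the RAW264.7 control group, each S100a6 group overlapped with the next.

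S100a10, S100a11 and S100a13 varied least across the 4 groups. S100a10 was 5.94 ± 0.21 in RAW264.7 control and 5.92 ± 0.35 in knockdown-primed CT-26 cells, which could not be separated, 5.67 ± 0.07 in RAW264.7 knockdown cells, which overlapped with both, and 5.34 ± 0.07 in control-primed CT-26 cells, below all others. S100a11 was 5.23 ± 0.27 in knockdown-primed CT-26, 5.09 ± 0.19 in RAW264.7 control, 4.89 ± 0.13 in RAW264.7 knockdown and 4.86 ± 0.16 in control-primed CT-26 cells, each overlapping its neighbour. S100a13 was 4.69 ± 0.42 in knockdown-primed CT-26, 4.53 ± 0.15 in RAW264.7 knockdown, 4.36 ± 0.02 in RAW264.7 control and 4.04 ± 0.03 in control-primed CT-26 cells. Only the first S100a13 pair in that order overlapped.

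The difference between cell lines in the response was taken as the RAW264.7 difference minus the CT-26 difference over all 12 arrays. For S100a8 it was 6.26 ± 0.46 (SE). For S100a4 it was -1.05 ± 0.31, the RAW264.7 difference being -0.67 and the CT-26 difference 0.39, and for S100a10 it was -0.84 ± 0.26. S100a6 gave -0.64 ± 0.24, S100a1 -0.63 ± 0.31, S100a11 -0.57 ± 0.25, S100a13 -0.48 ± 0.27 and S100a3 0.20 ± 0.32. The S100a9 value, 1.57 ± 0.59, rests on CT-26 arrays none of which was well above background. The median of all 27070 genes tested was -0.39, and that of the 9 members -0.57. In this contrast 1 member passed the threshold in the higher direction, against 7.44% of all genes, and 2 in the lower, against 23.9% (31.4% in either direction). Without control-primed CT-26 replicate 3, knockdown-primed replicate 3, or RAW264.7 knockdown replicate 1 or 3, the total was 1 rather than 3, and with slide as a block it was also 1. Quantile normalisation brought S100a4 to -0.27 and S100a10 to 0.00, and turned S100a6 to 0.08, S100a11 to 0.18 and S100a13 to 0.23. Members above 0 were then 6 of 9, with a median of 0.12 against -0.10 for all genes. Of all calls in this contrast 23.7% were higher as processed here, 34.4% after median centring, 41.4% after quantile normalisation and 13.8% with normexp.

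The 10 other S100 names on the array are those left after the members were taken, with earlier results of these data known. They were tested across all genes, and their p-values do not allow for that choice. In RAW264.7 cells 6 could be tested: S100pbp rose, S100a5 fell, and 4 did not pass. S100a5, a calcium-, zinc- and copper-binding member, read -2.48, -2.69 and -2.93 on control and -4.06, -4.02 and -3.57 on knockdown arrays. It fell by 1.19 ± 0.21 on the log2 scale (SE, limma adjusted p = 0.00797), by 0.96 within slide 2, and the adjusted p with slide as a block was 0.132. In CT-26 cells S100a5 read -3.74, -3.99 and -4.07 on control-primed and -3.12, -2.96 and -2.65 on knockdown-primed arrays. It rose by 1.02 ± 0.18 (limma adjusted p = 0.0201), the only one of 6 tested there to pass. That call was lost without the filter on dim probes (limma adjusted p = 0.0877) and on leaving out control-primed replicate 2 or 3 or knockdown-primed replicate 3 (0.0614 to 0.104). The opposite directions differed between cell lines by -2.21 ± 0.28 (limma adjusted p = 0.000364). S100a5 lies between S100a4 and S100a6 on chromosome 3.

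S100pbp is not an S100 protein but a nuclear protein named for binding S100P, and lies on chromosome 4. At its brightest probe it read 0.24, -0.07 and -0.03 on RAW264.7 control and 0.88, 0.70 and 0.56 on knockdown arrays, and rose by 0.67 ± 0.19 (SE, limma adjusted p = 0.037). With slide as a block the adjusted p was 0.201, and leaving out any array except control replicate 2 gave 0.0532 to 0.114. A second probe gave 0.71, while the remaining probe, well above background on 1 of the 6 RAW264.7 arrays, read lower in knockdown cells, and the difference of the mean over probes was -0.17. In CT-26 cells it differed by -0.35 ± 0.17 (limma adjusted p = 0.199).

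S100a16 and S100a7a set the cell lines apart. S100a16, a broadly expressed member, read -2.55, -2.71 and -3.16 on RAW264.7 control and 3.1, 3.42 and 3.07 on control-primed CT-26 arrays, a difference of -6.01 ± 0.22 (SE, limma adjusted p = 2.34e-07), or 64.3-fold. Its second probe gave nearly the same levels, -3.0 ± 0.28 and 3.12 ± 0.09 (SD, n = 3). S100a7a, related to the skin protein psoriasin, was not well above background on any RAW264.7 control array and read -1.26, -0.96 and -1.26 on control-primed CT-26 arrays, at least 19.5-fold higher (limma adjusted p = 1.22e-05). For that bound each RAW264.7 array entered with the dimmest signal still well above background there, or with the signal of the probe where that was brighter. S100a14, an epithelial member, stood at -3.84 ± 0.49 in RAW264.7 control and at -1.09 ± 0.49 in control-primed CT-26 cells (SD, n = 3), a difference of -2.75 ± 0.33 (SE, limma adjusted p = 0.000177). S100a2 was higher in RAW264.7 control cells by 1.88 ± 0.17 (limma adjusted p = 4.03e-05). Within either cell line none of S100a2, S100a14 and S100a16 passed the threshold, with limma adjusted p from 0.0985 to 0.986. The S100a7a difference between the CT-26 groups, 0.56 ± 0.18, had a limma adjusted p of 0.0882.

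Genes through which S100 proteins act, or that act on S100 genes, were counted in 8 lists. The lists were chosen with earlier results of these data known, so their counts are a description. Over all genes tested, 7.93% rose and 14.8% fell in RAW264.7 cells, and 3.19% rose and 3.23% fell in CT-26 cells. The 8 lists and the other S100 genes held 42 calls in RAW264.7 cells, and 17 with slide as a block. In CT-26 cells they held 16, and 7 without the filter on dim probes. Without control-primed replicate 2 or 3 or knockdown-primed replicate 3 the CT-26 number was 9, 7 and 8, and without RAW264.7 knockdown replicate 2 or 3 the RAW264.7 number was 26 each time. Of 12 receptors and adaptors that read extracellular S100 proteins, 6 rose and none fell in RAW264.7 knockdown cells, with a list median of 0.77 against -0.30 for all genes. Cd36, a scavenger receptor reported to take up S100a8 and S100a9 with their lipid cargo, rose by 3.28 ± 0.25 (SE, limma adjusted p = 8.35e-05), and by 3.13 within slide 2. Tlr4, the receptor for S100a8, rose by 2.42 ± 0.22 (limma adjusted p = 0.000209), and by 2.0 within slide 2. Fpr2, a formyl peptide receptor, was not well above background on any control array and was at least 4.39-fold higher (limma adjusted p = 0.000236). With slide as a block 4 of the 12 passed, all higher. In CT-26 cells 1 of 8 rose and 2 fell: Myd88, the Tlr4 adaptor, rose by 0.66 ± 0.16 (limma adjusted p = 0.0424), and Cd68, a lysosomal scavenger receptor and macrophage marker, fell by 0.83 ± 0.15 (limma adjusted p = 0.0208). Without the filter on dim probes both had an adjusted p of 0.0877 by limma, Myd88 had 0.0837 with the replicate number as a block, and Cd68 had 0.176 with the mean of its probes. Leaving out 1 array ended the Myd88 call for 4 arrays (0.0975 to 0.188) and the Cd68 call for 3 (0.0618 to 0.0971), control-primed replicates 2 and 3 among them each time.

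Among 18 annexins and other intracellular targets tested in RAW264.7 cells, 5 rose and 1 fell, with a median of 0.00. Mdm2, the p53 ligase that S100a4 is reported to bind, rose by 1.56 ± 0.21 (SE, limma adjusted p = 0.00218). Anxa3 rose by 1.32 ± 0.19 (limma adjusted p = 0.00282) and Anxa4, at its brightest probe, by 0.78 ± 0.17 (limma adjusted p = 0.0179). A second Anxa4 probe differed by -0.33 ± 0.25, and the mean of the probes by 0.23 (limma adjusted p = 0.307). With slide as a block the Anxa4 adjusted p by limma was 0.132 and 2 of the 18 passed. Leaving out 1 array ended the Anxa4 call for 3 of the 6 arrays (up to 0.0798). In CT-26 cells 1 of 19 rose, Anxa6 by 1.09 ± 0.18 (limma adjusted p = 0.0156), and 1 fell, the kinase Stk38, a target of S100b, by 0.82 ± 0.16 (limma adjusted p = 0.0272). Without the filter both had an adjusted p of 0.0877 by limma. Leaving out 1 array ended the Anxa6 call for 2 arrays (0.0579 and 0.0881) and the Stk38 call for 3 (0.0702 to 0.131), control-primed replicate 3 among them each time.

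The plasminogen system, which S100a10 concentrates at the cell surface, had 4 of 8 genes higher and none lower in RAW264.7 knockdown cells. Serpinb2, an inhibitor of plasminogen activators, was not well above background on any control array and was at least 14.8-fold higher (limma adjusted p = 0.000435). Plat, tissue plasminogen activator, rose by 3.34 ± 0.41 (SE, limma adjusted p = 0.00124), with 1 of 3 control arrays well above background. Plau, urokinase, rose by 1.29 ± 0.22 (limma adjusted p = 0.00639), by 0.92 within slide 2, and the adjusted p with slide as a block was 0.113. With slide as a block 2 of the 8 passed. In CT-26 cells 1 of 7 rose, Serpinb2 again, by 1.05 ± 0.16 (limma adjusted p = 0.0135; 0.0863 without the filter, and 0.0506 to 0.0736 without control-primed replicate 2 or 3 or knockdown-primed replicate 3). S100a10 itself differed by -0.27 in RAW264.7 and by 0.57 in CT-26 cells, as given above.

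The phagocyte NADPH oxidase, to which calprotectin hands arachidonic acid, had few calls. Of 7 subunit genes none rose and 2 fell in RAW264.7 knockdown cells: Cybb, the catalytic subunit, by 1.22 ± 0.24 (SE, limma adjusted p = 0.0109), and the organiser Ncf1 by 0.89 ± 0.20 (limma adjusted p = 0.0202). Within slide 2 the Cybb difference was -0.90 and the Ncf1 difference -0.91, with adjusted p of 0.174 and 0.16 with slide as a block by limma, and none of the 7 passed there. Leaving out 1 array ended the Cybb call once (limma adjusted p = 0.053) and the Ncf1 call for 2 arrays (up to 0.0985). The list median was -0.37, near the -0.30 of all genes.

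The list of genes of export without a signal peptide, drawn up around S100a13, held both interleukin 1 genes. Il1b, a cytokine exported without a signal peptide, read -3.56 on average in control and 3.23 in knockdown RAW264.7 cells and rose by 6.80 ± 0.28 (SE, limma adjusted p = 4.28e-06). Il1a, which S100a13 helps to export, was not well above background on any control array and was at least 15.5-fold higher (limma adjusted p = 0.00106). These were 2 of 4 tested, and both passed with slide as a block. In CT-26 cells Fgf1, the other cargo tied to S100a13, fell by 1.54 ± 0.23 (limma adjusted p = 0.0135), with 2 of 3 knockdown-primed arrays well above background, and 4 other tested genes of the list did not pass. With normexp the Fgf1 difference was -0.81 (limma adjusted p = 0.0513), without the filter the adjusted p was 0.0868, and without control-primed or knockdown-primed replicate 3 it was 0.0685 and 0.0579.

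Of 18 transcription factors known to act on S100 promoters, 6 rose and none fell in RAW264.7 knockdown cells, with a list median of 0.12. Cebpe, a factor of late myeloid genes, rose by 1.87 ± 0.28 (SE, limma adjusted p = 0.00323), Ctnnb1, which acts on S100a4, by 1.07 ± 0.17 (limma adjusted p = 0.00404), and Hif1a by 0.96 ± 0.21 (limma adjusted p = 0.0184). With slide as a block none of the 18 passed, the adjusted p of these 3 being 0.0523, 0.0624 and 0.226 by limma; their differences within slide 2 were 1.72, 1.01 and 0.78. The Hif1a call ended when any 1 of 4 arrays was left out (limma adjusted p up to 0.0681). With the mean of its probes Hif1a differed by 0.26 (limma adjusted p = 0.363). In CT-26 cells 1 of 16 rose, Cebpd, by 1.97 ± 0.19 (limma adjusted p = 0.00265).

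Other secreted alarmins and innate defence genes had the highest share of calls among the lists in both cell lines. Nothing is read from that order, since the lists were chosen with earlier results of these data known. In RAW264.7 knockdown cells 11 of 12 tested rose and none fell, with a median of 2.26. The chemokine Cxcl3 was not well above background on any control array and was at least 164-fold higher (limma adjusted p = 1.86e-05). Slpi, a protease inhibitor, rose by 4.30 ± 0.28 (SE, limma adjusted p = 4.28e-05), and Lcn2, an iron-scavenging protein, by 2.78 ± 0.21 (limma adjusted p = 7.72e-05). With slide as a block 7 of the 12 passed. In CT-26 cells 6 of 10 rose and none fell, with a median of 2.17: Saa3, an acute-phase protein, by 3.61 ± 0.17 (limma adjusted p = 4.6e-05) and the chemokine Cxcl5 by 3.03 ± 0.18 (limma adjusted p = 0.000189). In those same CT-26 cells S100a8 differed by 0.15 and S100a9 was not well above background.

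Calcium sensors of other EF-hand families gave little. In RAW264.7 cells 1 of 18 rose, Ncs1 by 0.58 ± 0.17 (SE, limma adjusted p = 0.0429), and 2 fell, Pvalb by 1.13 ± 0.27 (limma adjusted p = 0.0244) and Rcn2 by 0.83 ± 0.24 (limma adjusted p = 0.0442). None passed with slide as a block. Leaving out 1 array ended the Ncs1 call for 5 of the 6 arrays (limma adjusted p up to 0.16), the Rcn2 call for 5 (up to 0.154) and the Pvalb call for 3 (up to 0.0959). In CT-26 cells none of 18 passed. Over all genes tested, 797 rose and 808 fell in CT-26 cells, and the higher share of calls, 49.7%, was 62.7% after median centring and 64.5% with normexp.

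**Figure D4:**
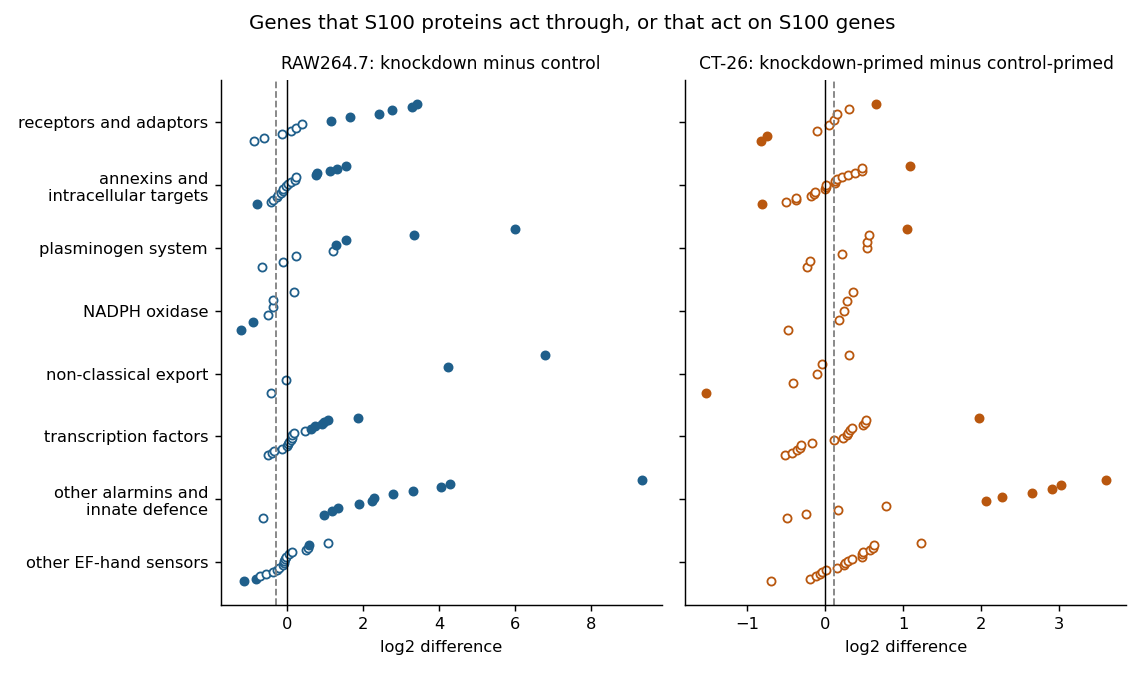
Log2 difference (horizontal axis) of the tested genes of 8 lists (1 listed gene is not shown), 1 row per list, between the RAW264.7 groups (left) and the CT-26 groups (right), n = 3 per group. Filled points passed an adjusted p of 0.05 over all genes tested and open points did not, and the dashed line is the median of all genes; 11 of 12 alarmin and defence genes passed on the left and 6 of 10 on the right, all higher.

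Genes whose pattern was most like that of a member were named from Pearson r over the 12 arrays among 15493 named genes, a description in which all points share arrays and groups. For S100a8 they were Trem3, a myeloid receptor (r = 0.994), Csta3, a stefin protease inhibitor (0.994), and Wfdc21 (0.991). For S100a9 they were Il1f6, an interleukin 1 family cytokine (r = 0.992), Gstt4 (0.989) and Tal2 (0.984), values that rest mostly on unmeasured arrays, since S100a9 was well above background on 1 of 3 RAW264.7 control, 3 of 3 knockdown and 0 of 6 CT-26 arrays. For S100a4 they were the ribosomal protein gene Rps27 (r = 0.990), Pitpna (0.986) and Rtraf (0.974). For S100a6 they were the proteasome subunit gene Psma7 (r = 0.980), Foxl2 (0.976) and the ribosomal protein gene Rpl19 (0.970). For S100a10 they were Nutf2 (r = 0.965), the RNA polymerase subunit gene Polr2l (0.962) and Sub1 (0.960).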

How the data were processed

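Total RNA of 12 samples was labelled with Cy3 and hybridised to 1-colour Agilent mouse arrays, read with Agilent Feature Extraction 10.7.3.1 per the submitters' processing notes; the coordinates of the probes are in mm9, as the headers state. Scanner output as deposited gives spot intensity on a linear scale, background-corrected within the array, per the file headers. The authors' deposited value table was matched to the scanner signals. Its 6 RAW264.7 columns, as deposited by the authors, hold log2 values of the processed signal after a shift per array and match their own arrays (medians -3.81, -3.53, -3.90, -4.01, -3.94 and -3.93). Its 6 CT-26 columns, as deposited, are linear intensity (medians 274.3, 277.3, 275.9, 227.4, 132.4 and 174.8), and 5 match another replicate of the same group, so replicate numbers of CT-26 arrays follow the scanner files. The table served as an alternative.

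Here 59305 spots per array (control spots out, 172 to 272 outlier spots out, none saturated) were converted to log2 and scaled by subtracting, per array, the 75th percentile; replicate spots of 1 probe were averaged. Accessions and symbols were matched to RefSeq names (GRCm38.p6) for 26863 and 3752 probes, and 25066 kept the name of the array. A gene was represented by its brightest probe among those detected (scored well above background on the full set of 3 arrays in any group), and entered a test if 1 of the compared groups met this detection rule. Fits used limma 3.58.1 (lmFit, eBayes, two-sided) in R 4.3.3, with Benjamini-Hochberg adjustment over all genes tested and a threshold of 0.05, and were checked on simulated data. A fit used only the groups compared, or all 12 arrays for the difference between cell lines. The members and lists were chosen with earlier results of these data known. Named genes were the members, the measured other S100 genes, Abhd5, of each list up to 4 genes per comparison with the smallest p (of these, at most 3 called genes are named for RAW264.7 and 2 for CT-26 cells), the marker genes, and the 3 genes most like each of 5 members. Replicates of a group correlated at 0.974 to 0.991 over probes, and the number of arrays limits the precision. Alternatives changed the scaling, background correction, dim-probe filter, probe summary, slide, replicate block, values and arrays used; slide as a block for the difference between cell lines and as a random block for their control groups were added after the data were seen. Of the listed genes, 1 is not reported here.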

Additional observations from a re-analysis of the deposited data

Results flagged for a closer look

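Differences between the RAW264.7 and the CT-26 response (RAW264.7 minus CT-26, log2, limma interaction contrast over 12 arrays, adjusted p under 0.05) set apart 25 of the tested genes named here, members being left out because they were chosen on these values. Among S100 genes S100a5 differed by -2.21, S100a16 by -0.95 and S100pbp by 1.02, and the targeted gene Abhd5 by -1.39. At its other probes Abhd5 differed by -0.48 ± 0.35 and -0.81 ± 0.51 (SE). The S100a16 difference had an adjusted p of 0.0987 after quantile normalisation and 0.235 with slide as a block, and leaving out 1 array ended the call for 8 of the 12 (up to 0.0743). With the mean of its probes the S100pbp difference was 0.36 (adjusted p = 0.599). Of the 25 genes, 16 were well above background on all 12 arrays. The values of Cxcl3, Cxcl5, Fpr2, Il1a, Cd36, Cybb, Ncf1, Plat and Serpinb2 rest in part on groups that were not, namely both CT-26 groups for Cd36, Cybb, Fpr2 and Il1a, the RAW264.7 control group for Cxcl3, Cxcl5, Fpr2, Il1a, Plat and Serpinb2, the control-primed group for Cxcl3 and the knockdown-primed group for Ncf1. Their sizes are therefore readings against background and not measured differences. Receptor genes were Tlr4 at 3.16, Fpr2 at 2.62 and Cd36 at 2.08. Intracellular targets were Mdm2 at 2.06, Stk38 at 1.95, Anxa3 at 1.47 and Anxa4 at 0.96. In the plasminogen system Serpinb2 differed by 4.94 and Plat by 2.80. Il1b differed by 6.49 and Il1a by 4.26, and the oxidase genes Cybb by -2.15 and Ncf1 by -1.13. Among transcription factors Cebpe differed by 1.36, Hif1a by 1.28, Ctnnb1 by 0.96 and Cebpd by -1.06. Among alarmins Cxcl3 differed by 6.68, Slpi by 2.02 and Cxcl5 by -2.06, and the EF-hand gene Rcn2 by -1.30. The median of all genes in this contrast was -0.39, and with slide as a block 20 rather than 41 listed genes passed.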

How the results depend on the processing

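As processed here 5791 genes passed between the RAW264.7 groups, 42 of them listed genes and 3 members. Median centring gave 3833 genes. Without the filter on dim probes 2642 genes and 26 listed genes passed, on slide 2 alone 1868, 23 and 1 member, and with slide as a block 1167, 17 and 1 member. In CT-26 cells 1605 genes, 16 listed genes and 0 members passed; without the filter the numbers were 41 genes and 7 listed genes, and normexp gave 1 member. The difference between cell lines gave 8494 genes, 41 listed genes and 3 members, and 2383, 20 and 1 with slide as a block. The control groups gave 17290 genes, 75 listed genes and 5 members, with 17162, 74 and 5 under slide as a random block. S100pbp in RAW264.7 cells turned to -0.17 with the mean of its probes. The causes of these shifts were not tested, except that fewer arrays enter slide 2 alone.

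Leaving out 1 array at a time gave 1693 to 7387 genes, 26 to 45 listed genes and 2 to 4 members between the RAW264.7 groups, with the fewest genes without knockdown replicate 3. It gave 94 to 3012 genes, 7 to 20 listed genes and 0 to 3 members in CT-26 cells, with 94 without control-primed replicate 3 and 3012 without knockdown-primed replicate 1. For the difference between cell lines the ranges were 5100 to 10173, 29 to 47 and 1 to 4, and for the control groups 14276 to 17670, 60 to 73 and 3 to 6.

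Replicate numbers are not stated to pair the samples. Same-numbered arrays correlated at -0.078 to 0.012 in RAW264.7 and -0.166 to -0.026 in CT-26 cells (deviations from group means). By the CT-26 numbering of the deposited value table the pairs correlated at -0.026 to 0.151, so these values cannot decide on pairing there. With the replicate number as a block 4813, 904, 7449 and 15836 genes passed in the 4 comparisons, in the order above, and 3, 0, 4 and 4 members. Signal over background limits S100a9, S100b, S100g, S100z, S100a7a and S100a7l2, which had no measured level in at least 1 group.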

Other observations

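The 4 dimmest S100 genes entered few comparisons. S100b, the glial member, was well above background on all 3 RAW264.7 knockdown arrays, at -6.29, -6.08 and -6.19, and on 1 array each of the RAW264.7 control and control-primed CT-26 groups. S100a7l2 was well above background on 1 RAW264.7 control, 2 RAW264.7 knockdown and 1 control-primed CT-26 array. S100g, the intestinal calbindin, was well above background on 1 RAW264.7 control array, at -4.32, and S100z on no array. Ly6g, a neutrophil surface marker, was well above background on all 6 CT-26 arrays, at -1.64 ± 0.17 after control priming and -0.93 ± 0.20 after knockdown priming (SD, n = 3). The neutrophil genes Elane, Mpo and Cxcr2 also were on all 6, while Ltf, Prtn3 and Retnlg were not on any. Of the 10 neutrophil markers 6 were well above background on all control-primed and 4 on all knockdown-primed arrays.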
